A study of Mus musculus with 6 samples.

Results

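The genes described here are the 126 class I odorant receptor genes of mouse chromosome 7. They were taken as every gene named Olfr followed by digits alone that starts between positions 101500000 and 105700000 of chromosome 7 in the deposited table. They are 11.3% of the 1113 odorant receptor genes so named, out of 41709 genes in all, and share the interval with 102 other genes, of which 10 are Olfr pseudogenes. The libraries came from total RNA of the posterior part of the nasal septum, with its mucosa and bone, of mice fed a zinc-deficient diet (3 libraries) or a control diet with sufficient zinc (3 libraries) between 4 and 8 weeks of age. Ribosomal RNA was depleted before sequencing, per the labels. No label used here gives strain or sex, or says that the libraries came from separate animals, so p-values measure only the spread between these libraries. Values are given for replicates 4, 5 and 6 of each diet, in that order.

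Odorant receptors are G protein-coupled receptors of olfactory sensory neurons, and each mature neuron transcribes a single allele of a single receptor gene. A receptor's RNA level in tissue therefore depends both on how many neurons chose that gene and on how much RNA each of them holds, and in bulk tissue fewer cells and less RNA per cell cannot be told apart. Class I receptors, first known from fish, lie in a single cluster interrupted by the beta-globin genes and by Trim genes. They are chosen mainly by neurons of the dorsal zone of the epithelium, and many of those with known ligands respond to carboxylic acids. The enhancer called the J element acts on many genes of the cluster, and the transcription factor Bcl11b limits class I choice in neurons that choose class II receptors, which are encoded elsewhere in the genome.

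The promoter is where receptor choice is read out, so the sequence upstream of class I genes is shown for 3 of them, chosen after their values were seen. Olfr544 had diet ranges that did not overlap, Olfr69 had the highest fold change among the genes with a usable start, and Olfr607 holds the homeodomain core TAATTA, in capitals. Sequences are from RefSeq (GRCm38.p6), each 250 bases ending just before the annotated start, 5′ to 3′ on the gene's strand. Olfr544 lies at chr7:102488308-102488557, Olfr69 at chr7:103771595-103771844 and Olfr607 at chr7:103464127-103464376, all on the minus strand.
Olfr544: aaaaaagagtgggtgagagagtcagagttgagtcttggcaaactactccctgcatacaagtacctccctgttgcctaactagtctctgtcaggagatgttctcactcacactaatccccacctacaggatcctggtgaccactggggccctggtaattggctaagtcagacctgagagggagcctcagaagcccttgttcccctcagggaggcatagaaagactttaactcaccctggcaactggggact
Olfr69: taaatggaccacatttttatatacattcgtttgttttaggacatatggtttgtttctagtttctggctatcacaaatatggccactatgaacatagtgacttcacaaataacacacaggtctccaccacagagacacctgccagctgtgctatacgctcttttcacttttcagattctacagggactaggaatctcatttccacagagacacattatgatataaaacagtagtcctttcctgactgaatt
Olfr607: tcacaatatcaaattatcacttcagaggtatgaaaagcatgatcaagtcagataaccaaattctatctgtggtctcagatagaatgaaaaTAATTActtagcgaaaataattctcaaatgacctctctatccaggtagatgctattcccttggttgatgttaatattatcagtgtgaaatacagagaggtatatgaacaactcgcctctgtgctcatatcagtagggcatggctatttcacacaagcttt

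RefSeq had a window for 108 of the 126 genes, but most of those models begin at the coding start or away from the GENCODE gene start. Only 7 genes with a span of 1200 bases or more had both starts within 50 bases of each other. TAATTA, which reads the same on both strands, was in 1 of those 7 windows, in 16 of 61 windows of other odorant receptors chosen the same way (26.2%) and in 4.85% of 32817 promoter windows of all genes. In Olfr607 its first base lies 160 bases before the start. The olfactory O/E motif TCCCNNGGGA, read on both strands, was in 0 of the 7 windows, in 0 of the 61 and in 0.780% of all windows. These are letter matches in short windows and say nothing of binding.

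The libraries held between 11731999 and 18727863 gene counts, and 22876 to 23896 genes had at least 1 count. A count of 3, the limit that a count of 0 allows, corresponded to 0.160 to 0.256 CPM (the count scaled to a common library total), counting error only. The defining genes of olfactory neurons were present in every library, with Omp, the olfactory marker protein of mature neurons, at 5043, 3339 and 3308 TMM-scaled CPM in zinc-deficient libraries, against 2360, 2867 and 2878 CPM in control libraries. Zinc-deficient replicate 4 stood apart: it had the highest CPM of Omp and the lowest summed CPM of the class I receptors, and of 18427 genes tested it was the lowest library for 4711 and the highest for 4667, more than any other library. Summed CPM, by column total, of 13 mature neuron genes was 11575, 10940 and 10505 in zinc-deficient libraries, against 7352, 9522 and 7311 in control libraries. Of 12 marrow genes 11 had positive log2 fold changes and 0 were called (median 1.42). Their summed CPM was 4593, 2202 and 2867 in zinc-deficient libraries, against 3406, 1004 and 2637 in control libraries. The gene with a negative value was Ltf, lactoferrin, at up to 2395 TMM-scaled CPM in control replicate 6. That library was the lowest for the other 11 marrow genes, so its marrow sum rests mainly on Ltf. Summed CPM of 6 bone genes was 12761, 7605 and 6482, against 19586, 12566 and 15365, in zinc-deficient against control libraries. The part of these differences in the receptor results was not tested.

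Class I receptor RNA was a small part of each library, and its summed level did not differ between diets beyond the spread of the libraries. The 126 genes together took 3419, 8142 and 8734 counts in zinc-deficient libraries, against 4346, 3588 and 5259 counts in control libraries. Relative to the column total this was 237, 504 and 466 CPM, against 333, 306 and 314 CPM. Replicates 5 and 6 of the zinc-deficient diet lay above every control library and replicate 4 below every one, so the diets overlapped. The means were 403 ± 144 CPM in zinc-deficient and 318 ± 13.8 CPM in control libraries (SD, n = 3 each), a ratio of 1.27 (two-sided exact permutation test, p = 0.4, where 3 against 3 cannot go below 0.1). The difference of 85.0 CPM became 167.5 CPM without zinc-deficient replicate 4 (exact p = 0.2), 34.4 CPM without replicate 5 (exact p = 0.8) and 53.1 CPM without replicate 6 (exact p = 0.8).

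**Figure D1:**
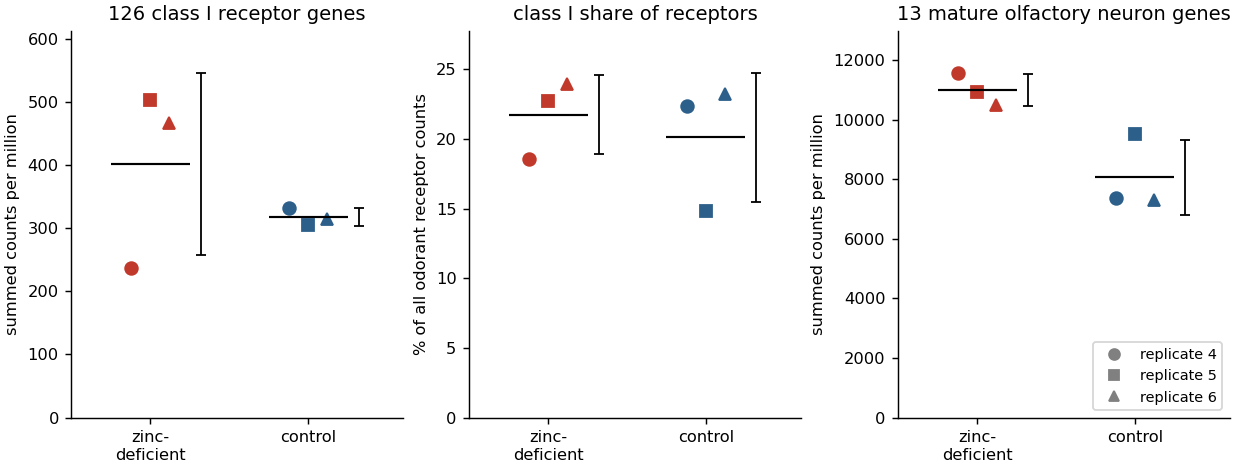
Summed CPM of the 126 class I receptor genes (left), their percentage of all odorant receptor counts (middle) and summed CPM of 13 mature olfactory neuron genes (right), per library, with zinc-deficient libraries in red and control libraries in blue; lines are means, bars SD (n = 3). Zinc-deficient replicate 4 has the lowest class I sum, 237 CPM, and the highest neuron sum, 11575 CPM.

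Set against the other receptors of the same library, class I genes held 18.5%, 22.8% and 24.0% of all odorant receptor counts in zinc-deficient libraries, against 22.4%, 14.8% and 23.2% in control libraries. Control replicate 5 was the lowest, and the diets overlapped throughout (21.8 ± 2.85% against 20.1 ± 4.63%, SD, n = 3 each, exact permutation p = 0.6). Without control replicate 5 the difference turned to -1.05 percentage points. The same library had the lowest ratio of dorsal to ventral zone markers. Counts of Acsm4, a marker of dorsal neurons, per count of Ncam2, an adhesion molecule of ventral ones, were 24.7, 18.4 and 17.7 in zinc-deficient libraries, against 18.9, 6.85 and 30.9 in control libraries. With Nqo1, another dorsal zone gene, in place of Acsm4 they were 4.22, 4.12 and 4.39, against 4.37, 1.97 and 6.36. The part of the sampled zone in the class I share was not tested.

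Per 100 counts of Omp, class I genes had 4.99, 14.1 and 13.8 counts in zinc-deficient libraries, against 14.3, 9.94 and 11.9 in control libraries (exact permutation p = 0.8, n = 3 each). The ratio of the other receptors was also lowest in zinc-deficient replicate 4. It was 21.9, 47.8 and 43.8 counts per 100 Omp counts, against 49.5, 57.2 and 39.5. Their summed CPM by column total was 1043, 1710 and 1479 in zinc-deficient libraries, against 1153, 1759 and 1039 in control libraries. Omp was highest in zinc-deficient replicate 4, while this sum was lower still in control replicate 6. Trace amine-associated receptors, a separate family of dorsal neurons, summed over 15 genes to 15.6, 24.6 and 27.4 CPM in zinc-deficient libraries, against 14.4, 11.2 and 11.4 CPM in control libraries. Here the diets did not overlap, with an exact permutation p of 0.1, the smallest that this design can give, and an adjusted p of 0.733 over 11 sums tested.

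Nearly all class I genes were detected in both diets. At least 1 count was found for 109, 115 and 117 of the 126 genes in zinc-deficient libraries, against 110, 114 and 114 in control libraries (exact permutation p = 0.8, n = 3 each). Thinned to the 11731999 counts of the smallest library, the expected numbers were 108.9, 114.8 and 116.8, against 110.0, 114.0 and 113.6. Counts were present in every library for 105 genes, in some libraries only for 15, and in none for 6, of which Olfr564, Olfr574 and Olfr585 come first along the chromosome. All 6 genes at 0 have annotated spans under 1200 bases. Of the 13 genes that short, 1 reached the test (Olfr692), and of the 113 longer ones 105 did.

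Levels within the cluster were compared as RPKM, which divides by the exon length of a gene, not by its span. The mean over the 6 libraries was highest for Olfr672 at 2.03 RPKM, the median over the 126 genes was 0.353, 9 genes reached 1 and 17 stayed under 0.1. Olfr672 had 1.17, 1.95 and 3.06 RPKM in zinc-deficient libraries, against 1.41, 1.85 and 2.72 RPKM in control libraries. Olfr598 had 0.881, 2.53 and 2.88 RPKM, against 1.47, 1.13 and 1.95 RPKM, and so was lowest in zinc-deficient replicate 4. Olfr549 was also lowest there, with 0.667, 2.89 and 2.44 RPKM in zinc-deficient libraries, against 1.73, 0.978 and 1.84 RPKM in control libraries. The ranges of these 3 leading receptors over the libraries overlapped one another. The next 7 in rank were Olfr544, Olfr65, Olfr552, Olfr592, Olfr685, Olfr653 and Olfr683, at means of 1.37 to 0.962 RPKM. By counts alone, without regard to length, Olfr592 led in 5 libraries and Olfr552 in control replicate 6, and the 10 genes with most counts held 22.8% to 27.9% of all class I counts of a library.

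**Figure D2:**
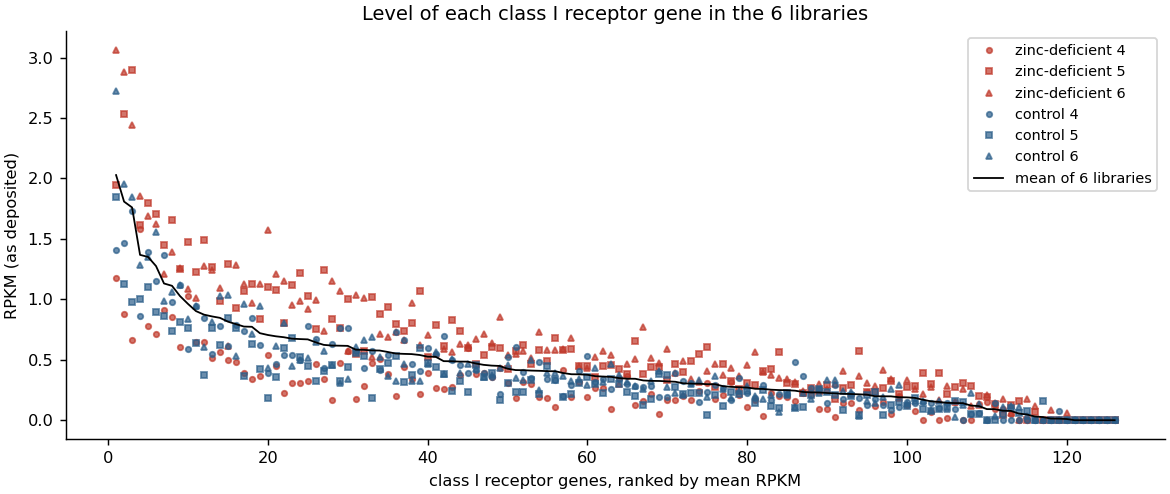
Deposited RPKM of each of the 126 class I receptor genes in the 6 libraries, ranked by the mean (line), with zinc-deficient libraries in red and control libraries in blue. Levels fall from 2.03 RPKM for Olfr672 to 0 for the last 6 genes.

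The diet comparison was fitted with edgeR's quasi-likelihood test over all 18427 genes that passed its filter on low counts, with Benjamini-Hochberg adjustment. All but 20 of the 126 class I genes were tested. None passed an adjusted p of 0.05, where 0.119% of all genes tested did (22 genes, with 16 or 0.0868% higher and 6 or 0.0326% lower). DESeq2 also called 0 class I genes, where 2.03% of 16865 genes passed. Limma-voom called 0 of them, where 0.0326% of genes passed, limma on log2 RPKM 0, where 0.0597% passed with either pseudocount, and edgeR with the replicate number as a block 0, where 0.83% passed. In the main edgeR fit the lowest adjusted p of a class I gene was 0.200 (Olfr691). Over the alternative fits the adjusted p of Olfr691 ran from 0.061 (DESeq2) to 0.490 (edgeR, library size set to odorant receptor counts). At an unadjusted p under 0.05 in the main edgeR fit, 8 class I genes were higher and 0 lower in zinc-deficient libraries. This was 7.55% of those tested, where 6.40% of all genes were higher and 6.46% lower. This count depended on which library was left out. Without zinc-deficient replicate 4 it was 29 higher and 0 lower (26.9% of class I genes tested, where 6.32% of all genes were higher). It was 3 without zinc-deficient replicate 5 (2.83%, where 5.26% of all genes were higher) and 4 without replicate 6 (3.77%, where 5.14% were). Without control replicate 5 it was 4 (3.70%, where 6.96% were). In these 3 settings too, all were higher, and their share was below that of all genes. The count changed little without control replicate 4 (7 higher and 0 lower, 6.48%, where 4.71% of all genes were higher). The same held without control replicate 6 (8 higher and 0 lower, 7.48%, where 6.07% were). Both of these shares were above that of all genes. Those tested include any that passed the filter through 1 diet alone, so counts over them are a description.

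Most log2 fold changes of zinc-deficient over control were small and positive. The median over the tested class I genes was 0.28 and the range -0.84 to 1.53, beside a median of -0.0020 over all genes tested, 0.094 over 542 other odorant receptors and 0.086 over 50 other genes of the interval. Positive values were found for 81 class I genes and negative ones for 25 (76.4% positive), beside 49.7% of all genes and 309 of 542 other receptors (57.0%). Another fit set library size to the odorant receptor counts of each library, which lowers the median of all genes by 0.092. There 61 of the same genes were positive (57.5%), beside 38.1% of all genes. The class I median was 0.099, beside -0.011 for the other odorant receptors. With TMM scaling and without zinc-deficient replicate 4, the class I median was 0.56, with 101 of 108 genes positive, where 48.7% of all genes were positive. It was 0.091 without replicate 5 (64 or 60.4% positive, beside 49.6% of all genes). Without replicate 6 it was 0.12 (65 or 61.3% positive, beside 49.9% of all genes).

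Seen by library, the class I genes moved largely together. Of the tested genes, 58 had their lowest CPM in zinc-deficient replicate 4, 0 in replicate 5 and 1 in replicate 6, against 11, 28 and 8 in control replicates 4, 5 and 6. The highest CPM fell in zinc-deficient replicate 4 for 1 gene, in replicate 5 for 44 and in replicate 6 for 43, against 10, 1 and 7 in the control libraries. The median log2 difference from the gene's control mean was -0.31, 0.47 and 0.46 in zinc-deficient replicates 4, 5 and 6. The same medians over 542 other odorant receptors were -0.16, 0.25 and 0.12. In control replicates 4, 5 and 6 the class I medians were 0.061, -0.12 and 0.099. Those of the other receptors were -0.083, 0.20 and -0.11. Zinc-deficient replicate 4 thus had the lowest median in both sets, but for the other receptors it was close to control replicates 4 and 6. On the same scale the 13 mature neuron genes were at 0.33, 0.31 and 0.34 in zinc-deficient replicates 4, 5 and 6.

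**Figure D3:**
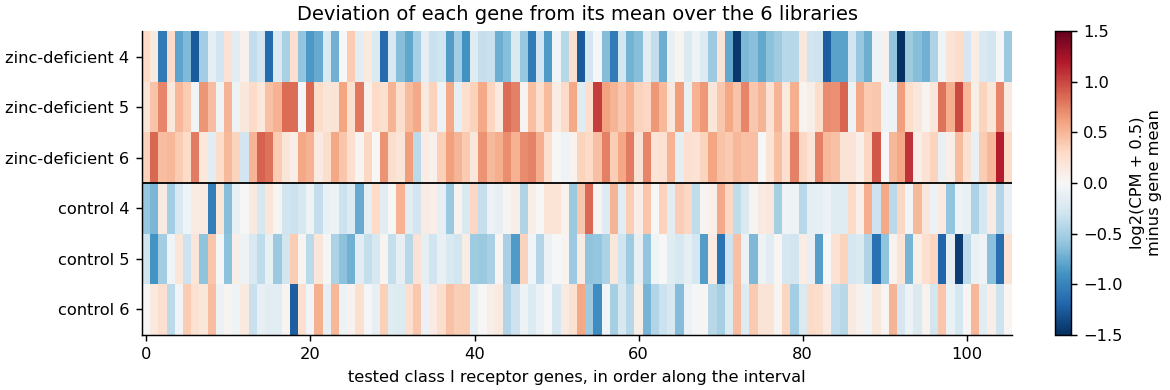
Deviation of log2(CPM + 0.5) from the gene's mean over the 6 libraries for the tested class I receptor genes, in order along the interval; red is above and blue below the mean, zinc-deficient libraries on top. Replicates 5 and 6 of the zinc-deficient diet are above the mean for most genes, and replicate 4 is below it for most genes.

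The stretches of the cluster held like shares of class I RNA in both diets. The 73 genes before the beta-globin genes held 53.0%, 52.0% and 52.7% of class I counts in zinc-deficient libraries, against 51.7%, 51.8% and 54.3% in control libraries. The 18 genes between the beta-globin and the Trim genes held 17.6%, 18.2% and 17.8%, against 19.6%, 18.2% and 14.8%. The 35 genes after the Trim genes held 29.4%, 29.9% and 29.5%, against 28.7%, 30.0% and 30.9%. All 3 shares overlapped between diets (exact permutation tests, n = 3 each, adjusted p = 1 over the 3). The median log2 fold change was 0.25, 0.44 and 0.22 in these groups, over 58, 16 and 32 tested genes, and 0.26 for genes on the plus strand, 0.32 on the minus strand. The beta-globin genes inside the interval, which code for subunits of hemoglobin, ran apart from the receptors: Hbb-bs had 1107, 527 and 514 CPM in zinc-deficient libraries, against 547, 162 and 149 CPM in control libraries (log2 fold change 1.32, edgeR adjusted p = 0.497).

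**Figure D4:**
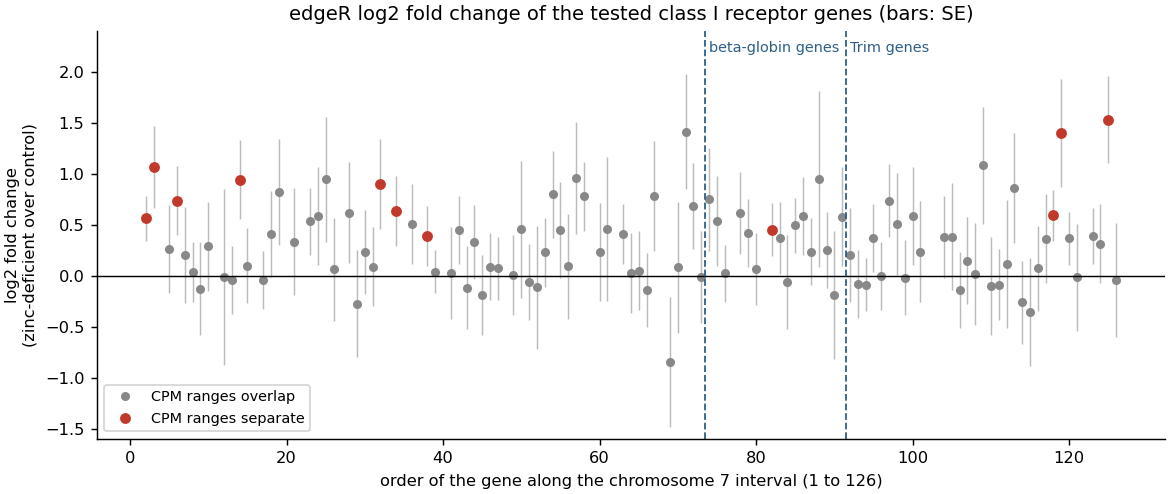
edgeR log2 fold change (zinc-deficient over control, bars SE) of the tested class I receptor genes by order along the chromosome 7 interval; dashed lines mark the beta-globin and the Trim genes. Red points are the 11 genes whose CPM ranges do not overlap between diets, spread over the cluster and all positive, and grey points are the others.

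For 11 of the tested class I genes, 10.4%, every zinc-deficient library lay above every control library, where 9.56% of all genes did, so the share is near the background. For 0 genes every zinc-deficient library lay below, where 9.31% of all genes did. The 11 were Olfr544, Olfr545, Olfr550, Olfr558, Olfr582, Olfr584, Olfr591, Olfr639, Olfr683, Olfr684 and Olfr691. None passed the adjusted test.

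Olfr691, which responds to carboxylic acids in cell assays, had the highest fold change. It had 2.65, 4.85 and 6.75 CPM in zinc-deficient libraries, against 1.86, 0.953 and 2.09 CPM in control libraries. The log2 fold change was 1.53 (SE 0.43, edgeR adjusted p = 0.200). It lies near the end of the cluster, at positions 104984716 to 104991477 on the minus strand in the deposited coordinates, of unnamed build, and shares none of its 50-base words with another gene. Its neighbour Olfr690, also an organic acid receptor, had 2.06, 3.0 and 3.87 CPM, against 2.87, 1.51 and 2.81 CPM, and the diets overlapped (log2 fold change 0.32, SE 0.39, edgeR adjusted p = 0.776).

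Olfr544, a receptor for azelaic acid, had 10.9, 9.98 and 11.2 CPM in zinc-deficient libraries, against 5.75, 7.15 and 8.75 CPM in control libraries. The zinc-deficient libraries were close together and all above the control libraries (10.7 ± 0.629 against 7.22 ± 1.5 CPM, SD, n = 3 each), with a log2 fold change of 0.56 (SE 0.22, edgeR adjusted p = 0.329). Unlike the class I sum, its value in zinc-deficient replicate 4 was not low. Olfr545, the next gene along the cluster and also a dicarboxylic acid receptor, had 3.16, 3.92 and 5.49 CPM, against 1.55, 1.27 and 3.14 CPM, with the nearest libraries of the diets almost touching (log2 fold change 1.07, SE 0.41, edgeR adjusted p = 0.318). Olfr544 shares 10.9% of its 50-base words with other genes, most often with Olfr545. Olfr545 shares 11.2% with other genes, most often with Olfr544, so reads between the pair may have been split.

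Olfr558, a receptor for short-chain fatty acids that is also used outside the nose, had 2.65, 3.35 and 3.30 CPM in zinc-deficient libraries, against 1.24, 1.27 and 2.29 CPM in control libraries (log2 fold change 0.94, SE 0.39, edgeR adjusted p = 0.344). Olfr78, known from the carotid body and from its response to short-chain fatty acids, had 4.41, 4.79 and 3.35 CPM, against 4.19, 3.97 and 4.70 CPM. Its diets overlapped (log2 fold change -0.039, SE 0.28, edgeR adjusted p = 0.968), and its gene model overlaps that of Olfr560 on the same strand. Olfr78 shares 14.2% of its 50-base words with other genes, most often with Olfr560.

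Olfr684 had 2.13, 3.81 and 2.51 CPM in zinc-deficient libraries, against 1.55, 0.318 and 1.31 CPM in control libraries (log2 fold change 1.40, SE 0.53, edgeR adjusted p = 0.318). The low value of control replicate 5 rests on 4 counts. Its neighbour Olfr683, one of the 10 genes with the highest RPKM, had 8.31, 10.7 and 7.69 CPM, against 4.58, 6.43 and 6.66 CPM (log2 fold change 0.59, SE 0.25, edgeR adjusted p = 0.353). Olfr683 shares 9.65% of its 50-base words with other genes, most often with Olfr684. Olfr582 had 1.47, 2.48 and 2.14 CPM, against 1.09, 0.794 and 1.37 CPM (log2 fold change 0.90, SE 0.44). The remaining members of the 11, Olfr550, Olfr584, Olfr591 and Olfr639, had log2 fold changes of 0.74, 0.63, 0.39 and 0.45.

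**Figure D5:**
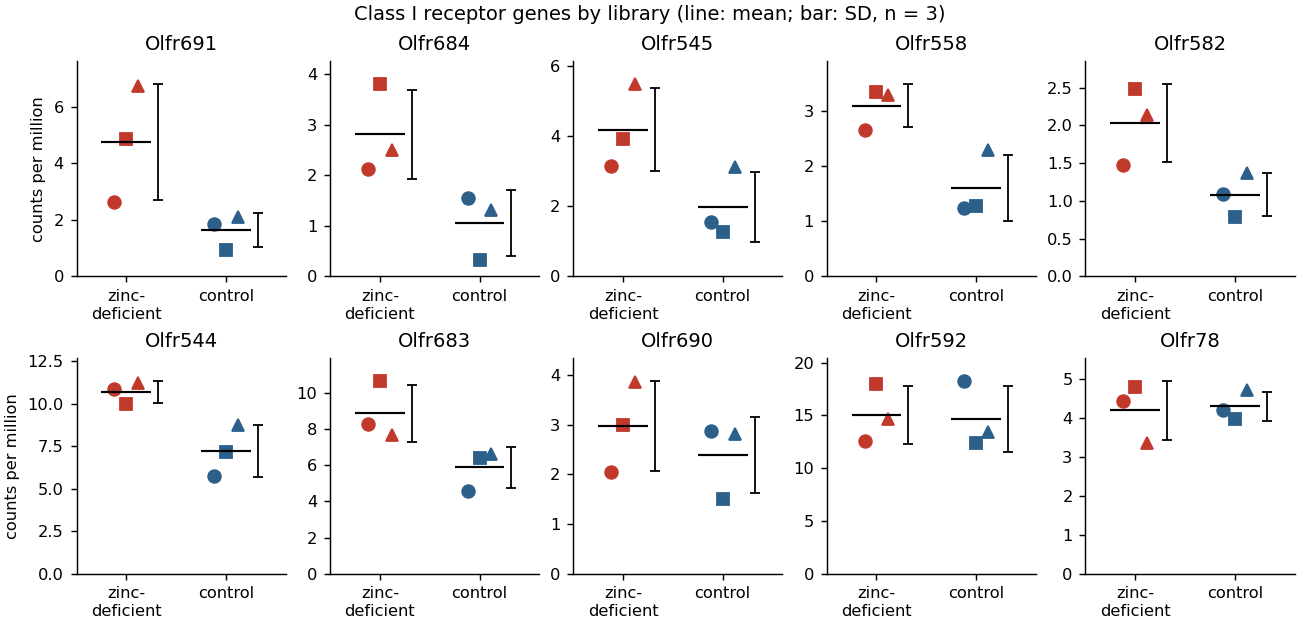
CPM (TMM-scaled) of 10 class I receptor genes per library, zinc-deficient in red on the left and control in blue on the right, with circles, squares and triangles for replicates 4, 5 and 6; lines are means and bars SD (n = 3). The first 7 have separate diet ranges, and Olfr690, Olfr592 and Olfr78 overlap.

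Apart from Olfr544 and Olfr683, the genes with the highest RPKM had diet ranges that overlapped. Olfr592 had 12.6, 18.0 and 14.6 CPM in zinc-deficient libraries, against 18.2, 12.4 and 13.5 CPM in control libraries (log2 fold change 0.039, SE 0.21, edgeR adjusted p = 0.958). Olfr672 had 3.68, 5.48 and 8.42 CPM, against 4.27, 6.03 and 8.43 CPM, and varied more within each diet than between them (log2 fold change -0.087, SE 0.34). Log2 fold changes were 0.33 for Olfr598, 0.26 for Olfr549, 0.024 for Olfr65, 0.038 for Olfr552, 0.37 for Olfr685 and -0.089 for Olfr653. Olfr692, the last gene of the cluster and known from the vomeronasal organ, had 0.441, 1.04 and 1.2 CPM, against 0.777, 1.11 and 0.915 CPM, and overlapped between diets. Olfr543, the first gene, had 4, 2 and 9 counts, against 0, 2 and 5 counts, and was not tested.

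Olfr69 and Olfr615, the remaining genes with an unadjusted p under 0.05, were chosen after their values were seen, as were Olfr550 and Olfr629. Olfr69 had 1.18, 3.0 and 1.83 CPM in zinc-deficient libraries, against 1.24, 0.635 and 0.392 CPM in control libraries (log2 fold change 1.42, SE 0.56, edgeR adjusted p = 0.330), so the diets overlapped. It shares 17.9% of its 50-base words with other genes, most often with Olfr68. Olfr615 had 4.71, 9.75 and 8.16 CPM, against 5.98, 2.86 and 4.38 CPM (log2 fold change 0.78, SE 0.34, edgeR adjusted p = 0.367), and its model overlaps Olfr616 on the opposite strand. The lowest log2 fold change was that of Olfr629, at -0.84 (SE 0.64), with 2, 15 and 28 counts in zinc-deficient libraries, against 20, 15 and 28 counts in control libraries. Over the cluster, 36 genes share more than 10% of their 50-base words with another gene and 16 have models that overlap another gene, so their values are less certain.

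Levels of the class I genes were correlated between libraries, to differing degrees. Across the tested genes, Pearson's r of log2(CPM + 0.5) between pairs of libraries lay between 0.676 (zinc-deficient replicate 4 and control replicate 5) and 0.886 (zinc-deficient replicates 5 and 6), with genes not independent of one another.

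The genes of receptor choice and transport showed no called change either. Of 28 listed genes 27 were matched by symbol and all 27 were tested; 0 passed the adjusted edgeR test, and the median log2 fold change was 0.22, with 19 positive and 8 negative values. At an unadjusted p under 0.05, 7 were higher (25.9%) and 0 lower, where 6.40% of all genes were higher. The share was larger among the 13 mature neuron genes (6 higher, 46.2%) and 9 immature neuron genes (4 higher, 44.4%), with 0 lower in both. Adcy3, Rtp1, Rtp2 and Gfy are in both this list and that of the mature neuron genes. Bcl11b had 125, 73.7 and 84.8 CPM in zinc-deficient libraries, against 62.5, 92.3 and 61.2 CPM in control libraries (log2 fold change 0.39), and was 1 of 12 listed genes that were highest in zinc-deficient replicate 4. Rtp1, which carries receptors to the cell surface, had 259.6, 272.8 and 272.0 CPM, against 182.5, 247.6 and 192.9 CPM (log2 fold change 0.37, edgeR adjusted p = 0.322). Log2 fold changes were 0.16 for its partner Rtp2, 0.48 for Lhx2, a homeodomain factor needed for receptor expression, and 0.54 for Atf5, the factor of the receptor feedback signal. Diet ranges were separate and higher in zinc-deficient libraries for 7 listed genes (25.9%), where 9.56% of all genes were. These were Adcy3, Rtp1, Gfy, Emx2, Lbr, Atf5 and Tshz1. Ranges were separate and lower for 2 listed genes (7.41%), where 9.31% of all genes were. The lower ones were Nfib, a transcription factor, at -0.25, and Cbx5, a heterochromatin protein, at -0.19, both singled out after their values were seen.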

How the data were processed

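RNA of 6 libraries was analysed, 3 per diet as the labels give them. The authors deposited whole-number counts per gene with RPKM, TPM and values named CPM (here called signal) per the file headers; no source used here names the aligner, counter or genome build. The deposited counts and RPKM were used; the TPM, signal and shorter lists were not. In edgeR 4.0.16 (R 4.3.3), counts were filtered with filterByExpr, scaled by TMM and tested with the robust quasi-likelihood fit over all genes, with Benjamini-Hochberg adjustment. CPM of single genes is TMM-scaled, and CPM of sums uses column totals. Standard errors were obtained from the fold change and the F statistic. Limma 3.58.1, DESeq2 1.42.0, other scalings, filters and leaving out each library were alternatives. The fit was tested on simulated counts. The deposited RPKM were used with pseudocounts of 0.1 and 1 in limma. Gene models, spans and 50-base words are from GENCODE (GRCm38): all 126 IDs matched, with equal spans but other coordinates, so deposited coordinates are of another or an unnamed build. Of class I counts above 0, 45.3% to 69.7% per library were even; whether mates of a pair were counted separately was not tested. The genes and lists were chosen with earlier results of these data known. Named genes were those past the test, the 10 with the highest mean RPKM, the 5 largest and 5 smallest fold changes among separate ranges, those with a known ligand, and the first and last of the cluster. Strand use in counting is not stated, so overlapping genes cannot be told apart.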

Additional observations from a re-analysis of the deposited data

How the results depend on the processing

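Under all 16 alternatives (2 other scalings, library size by receptor counts, 2 filters, the replicate block, DESeq2, voom, 2 RPKM pseudocounts and 6 with a library left out), 0 class I genes were called, the median log2 fold change lay between 0.091 and 0.56 and 61 to 101 genes were positive. The RPKM fits moved the median of all genes by 0.106 (pseudocount 0.1) and 0.062 (pseudocount 1). Over all genes, calls numbered 22 in the edgeR fit, 2 with receptor library sizes, 172 without a filter, 153 with the replicate block, 343 in DESeq2, 6 in voom, 11 with either RPKM pseudocount, and 9 to 50 with 1 library left out; the cause was not tested. Leaving out 1 library gave differences of 34.4 to 167.5 CPM for the class I sum, -1.05 to 3.22 percentage points for the share of receptor counts, and -0.67 to 3.33 for detected genes, with the sign turned for the share without control replicate 5 and for detected genes without control replicate 4 (-0.33) or zinc-deficient replicate 6 (-0.67). Small log2 fold changes of named genes also turned sign. With receptor library sizes they were -0.16 for Olfr65, -0.16 for Olfr552 and -0.11 for Olfr592. With the replicate block they were -0.031 for Olfr65 and -0.0035 for Olfr552, and in voom -0.0092 for Olfr65. On log2(RPKM + 1) they were 0.0100 for Olfr672, 0.0047 for Olfr653, 0.018 for Olfr78 and 0.015 for Olfr692, and on log2(RPKM + 0.1) 0.052 for Olfr78. With 1 library left out the values that turned ran over -0.44 to 0.20 for Olfr672, -0.087 to 0.65 for Olfr549, -0.17 to 0.29 for Olfr65, -0.15 to 0.31 for Olfr552, -0.11 to 0.23 for Olfr592, -0.23 to 0.15 for Olfr653, -0.15 to 0.10 for Olfr78 and -0.31 to 0.27 for Olfr692. The deviations of same-numbered libraries correlated at -0.06, 0.179 and 0.079 for replicates 4, 5 and 6. Zinc-deficient replicates 5 and 6 correlated best with the control library of the same number, and zinc-deficient replicate 4 with control replicate 6 (0.116). Whether the numbers mark a pairing or a batch was not tested. The replicate block left the differences as they were, and called 0 class I genes. Its exact p was 0.5 for the class I sum and 0.75 for the share and for detected genes (3 pairs). An exact test on 3 pairs cannot reach a p of 0.05, so these values could not have shown a difference. Single class I genes had 0 to 312 counts in a library; whether depth set the number of calls was not tested.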

Other observations

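Of the 20 class I genes that were not tested, 6 had no count and 14 had 2 to 70 counts over the 6 libraries. Together these 20 had 12, 111 and 89 counts in zinc-deficient libraries, against 22, 26 and 42 counts in control libraries. Olfr555, chosen after its values were seen, had 4, 6 and 7 counts in zinc-deficient libraries, against 0, 0 and 0 in control libraries. Against a floor of 3 counts over the control group it was 4.78-fold higher in CPM (0.345 against 0.0722 CPM). This ratio allows for counting error of the control counts only. The error of the 17 zinc-deficient counts is left out, so it is not a strict lower bound. The ratio would be lower if the mates of a pair were counted separately, which was not tested. Without the filter on low counts its edgeR adjusted p was 0.267. The 10 Olfr pseudogenes of the interval took 57, 136 and 148 counts in zinc-deficient libraries, against 58, 44 and 69 counts in control libraries, with zinc-deficient replicate 4 lowest of its diet as for the class I genes.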
